A study of Saccharomyces cerevisiae with 9 samples.

Results

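The evolved mutator line m8 of Saccharomyces cerevisiae was hybridised against its ancestor in 2 rounds, a first round of 3 arrays and a repeat round of 3 arrays. These 6 arrays, of 9 in the series, were chosen by their titles, which mark the repeat arrays as such. On each array RNA of m8 after 6700 generations, labelled with Cy5, was set against RNA of the mutator ancestor it was derived from, labelled with Cy3. The ancestor already had a raised mutation rate, so both channels carry the mutator background, and m8 is a single evolved line. The other 3 arrays compared an evolved non-mutator, also after 6700 generations, with its own non-mutator ancestor, and are given here as control values. Cultures had been started from overnight cultures and grown in 3 ml of YPD, a rich glucose medium, to an OD600 near 0.3. The repeat arrays carry the evolved numbers 1, 2 and 3 of the first round and the ancestor numbers 1, 1 and 3. The labels do not say whether the repeat round used the same RNA, new RNA or new cultures, so these cannot be told apart as sources of a difference between rounds. Nothing in them says that numbers mark separate cultures, so p-values measure the spread between arrays, which may be technical.

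A 2-colour expression array measures, for each gene, the ratio of its RNA between 2 samples hybridised together. Of the functions followed here, respiration and iron use are linked in yeast by oxygen, heme and iron-sulfur clusters. The respiratory chain needs heme and iron-sulfur clusters, heme activates the transcription factor Hap1, and the transcription factor Aft1 switches on iron uptake when iron-sulfur clusters run short. In glucose medium budding yeast mainly ferments, genes of respiration and of the general stress response are kept low, and genes of the cell cycle and of ribosome assembly are high while cells divide fast.

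Values are log2 ratios from which each array's own median was subtracted, and evolved over ancestor is their likely direction, from the dye labels. A positive value therefore means more RNA in m8 than in its ancestor, and a difference between rounds is the repeat mean minus the first mean. Deposited ratios had a median of 1.06 or 1.07 on each mutator array, and centring lowered their log2 values by 0.08 to 0.12. Across probes, log2 ratios had an SD of 0.93 to 0.97 on first-round arrays, 0.85 to 1.0 on repeat arrays and 0.28 to 0.30 on non-mutator arrays. Ratios at the floor of 0.01, set to missing, numbered 35 to 73 per first-round array and 83 to 132 per repeat array. The files hold no counts or intensities, so the number of arrays sets the precision.

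Most large changes of m8 were seen in both rounds, and a minority of genes depended on the round. Of 6571 probes with at least 2 values in each round, 297 (4.52%) differed between rounds at an adjusted p under 0.05 in limma, which is the meaning of "called" here. The ratio was higher in the repeat for 183 of them (2.78%) and lower for 114 (1.73%). Without adjustment, 1442 probes (21.9%) had a limma p under 0.05 for the difference. The rounds did not overlap for 970 probes (14.8%) with the repeat above and for 1040 (15.8%) with it below. Against the ancestor, 4022 probes (61.2%) were called in the first round, 1970 (30.0%) higher and 2052 (31.2%) lower. In the repeat 3898 (59.3%) were called, 1883 (28.7%) higher and 2015 (30.7%) lower. Probes called in the same direction in each round, referred to as held, numbered 3116 (47.4%), of which 1516 (23.1%) were higher in m8 and 1600 (24.3%) lower. Of these, 149 (2.27% of all probes) were also called for a difference in size between the rounds. A further 1483 probes (22.6%) were called in 1 round alone without a called difference, which does not show that the rounds differed there.

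Probes picked for a large called change in 1 round were mostly called in the same direction in the other. Among 254 probes called in the first round with at least a 4-fold change, 244 (96.1%) were called in the same direction in the repeat. Among 202 such probes of the repeat, 195 (96.5%) were called in the same direction in the first round. For called probes of any size these shares were 77.5% and 79.9%. A difference between rounds was called for 65 of the 254 (25.6%) and 25 of the 202 (12.4%), where 4.52% of all probes had one. These probes were picked by size and call in 1 round of the same fit. That choice alone can raise both kinds of share, so neither was tested as a trait of large changes. Probes called in opposite directions in the rounds, with a called difference, numbered 47 (0.715%), 20 higher in m8 in the first round alone and 27 in the repeat alone. The median absolute difference over all probes was 0.21, against a median SE of 0.15, and it was 1.01 among the called probes, 157 of which differed at least 2-fold and 14 at least 4-fold. The number called depended on single arrays: without first-round array 2 it was 92, without first-round array 3 it was 104, and without repeat array 1 it was 142. The opposite calls numbered 22, 28 and 30 in the same fits, and 30 without repeat array 2.

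**Figure D1:**
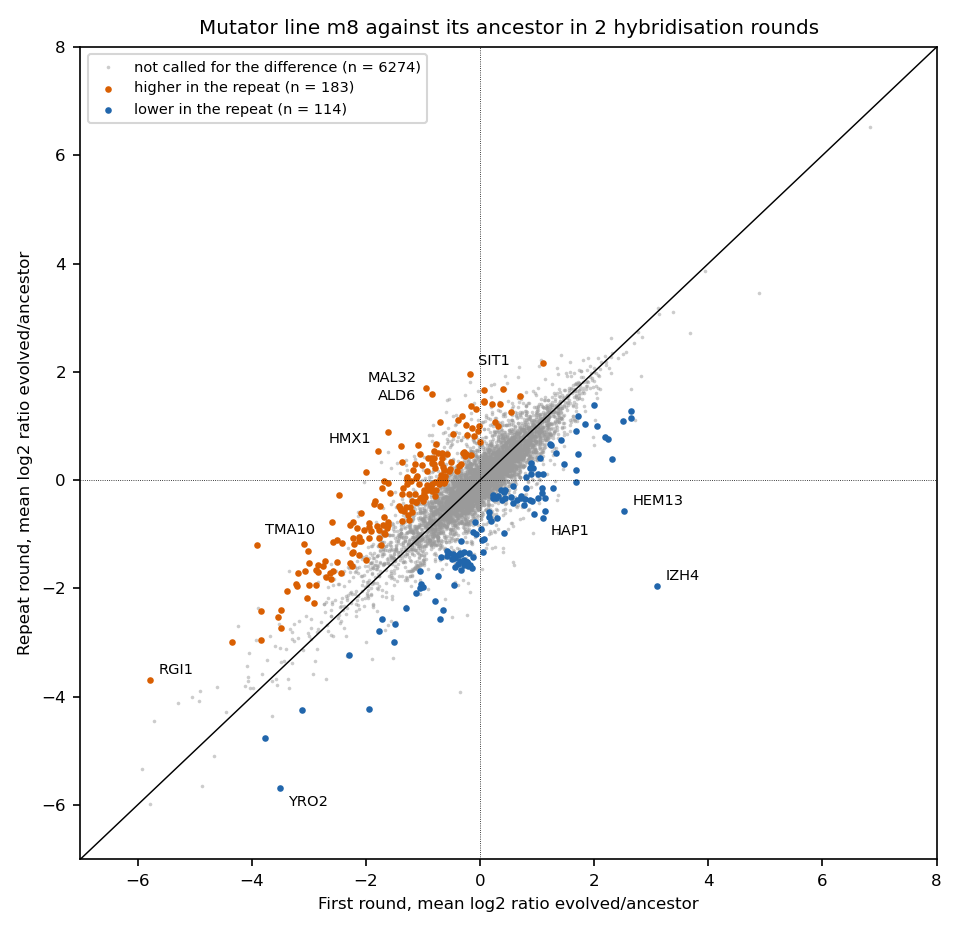
Mean log2 ratio of m8 over its ancestor, first round on the x axis and repeat on the y axis, for each of 6571 probes; the diagonal marks equal values. The 183 probes called higher in the repeat lie above the diagonal and the 114 called lower lie below it, with IZH4 and HEM13 the farthest below among the called probes.

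By function, iron, respiration and stress genes were called for a difference at rates of 15.9%, 13.7% and 16.1% (113, 211 and 155 genes tested), against the background of 4.52%. Of the cell cycle genes 8 were called (7.62%), all of them lower in the repeat. These rates depended on single arrays and, for stress, on scaling. With 1 array left out they ran from 10.6% to 16.8% for iron, 5.74% to 11.6% for respiration, 3.9% to 13.5% for stress and 1.9% to 6.67% for the cell cycle, while all probes ran from 1.42% to 4.21%. The lowest rate of each function came without first-round array 2 (and, for iron and the cell cycle, equally without first-round array 3), where stress and the cell cycle had 6 and 2 called genes. Without repeat array 1 the rates were 10.7%, 7.25%, 7.28% and 2.88%, in the same order. With an equal median absolute deviation on all arrays, stress genes were called at 8.39% and all probes at 3.82%. Held genes made up 37.2% of the iron genes and 35.1% of the respiration genes, below the background of 47.4%, and 61.0% of the cell cycle genes and 71.0% of the stress genes, above it. The median difference was 0.03 for iron, 0.14 for respiration, -0.26 for the cell cycle and 0.27 for stress, where all probes had -0.02. Of all probes, 47.6% had a positive and 52.4% a negative difference.

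**Figure D2:**
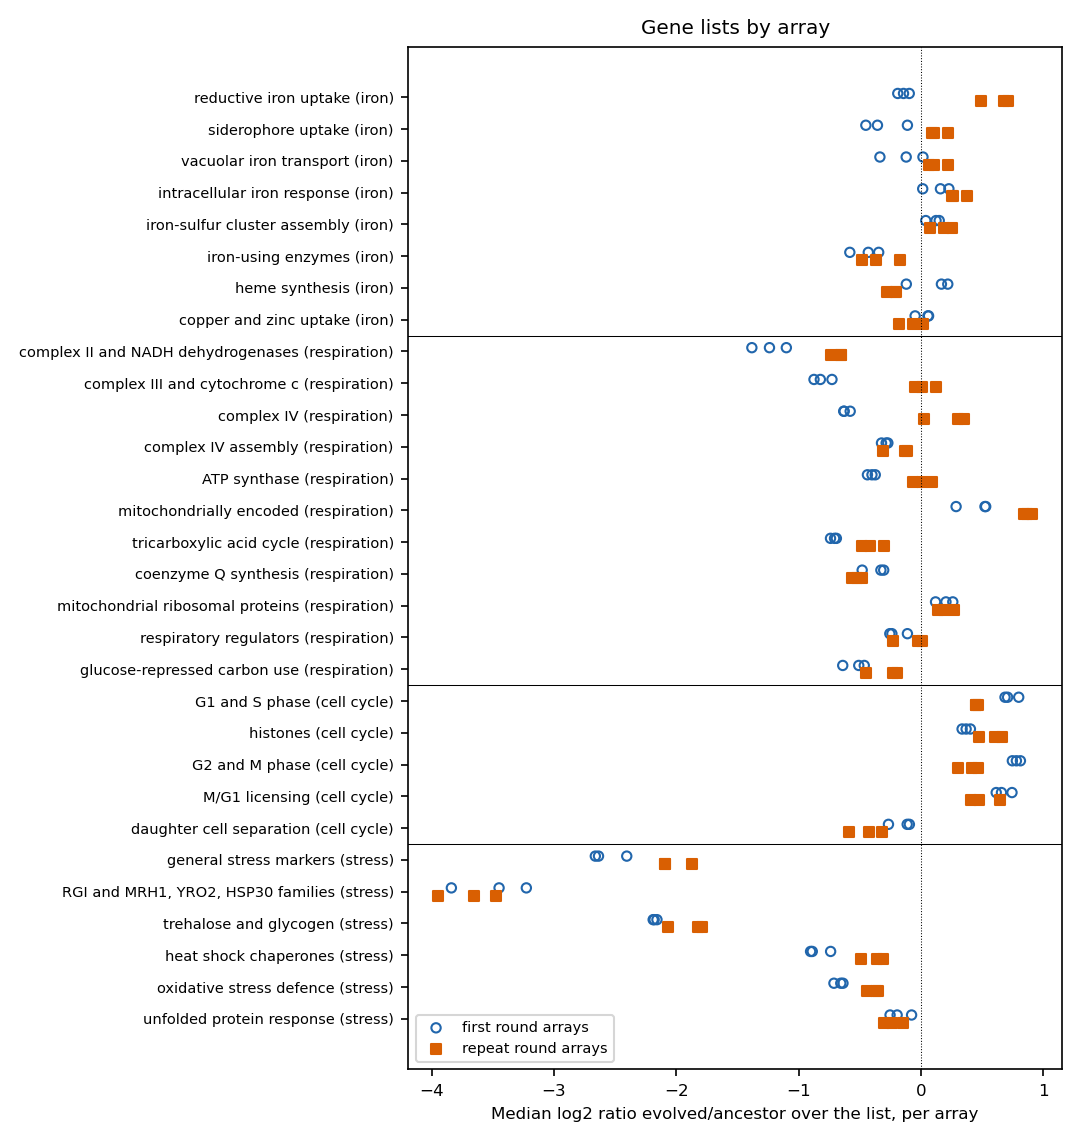
Median log2 ratio of m8 over its ancestor over each gene list, with 1 symbol per array; open circles are the 3 first-round arrays and filled squares the 3 repeat arrays. Complexes III and IV and reductive iron uptake separate by round near 0, whereas the lists of stress markers and of trehalose and glycogen stay far below 0 in both rounds.

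Iron uptake at the cell surface depended on the round. Of 11 genes listed for reductive uptake, in which ferric iron is reduced, oxidised again and carried in, 8 were tested; 4 were called higher in the repeat and none lower, these being FET3, FTR1, FRE1 and FRE6. FET3 (YMR058W), which encodes the ferroxidase, stood at -0.36, -0.16 and 0.02 on the first-round arrays and at 1.44, 1.35 and 1.34 on the repeat arrays. FTR1 (YER145C), the iron permease that works with it, stood at 0.08, 0.02 and 0.10 in the first round and at 1.40, 1.49 and 1.44 in the repeat. Both genes were near the ancestor's level on every first-round array and well above it on every repeat array, with no overlap. The differences were 1.54 ± 0.13 (SE) for FET3 and 1.38 ± 0.10 for FTR1, 2.91-fold and 2.60-fold (adjusted p = 0.00384 and 0.00373). FET3 lay at -3.02 to -2.57 on the non-mutator arrays. FRE1 (YLR214W), the main surface reductase, was lower than in the ancestor on the first-round arrays (-1.56, -1.79 and -1.68) and near it on the repeat arrays (0.16, -0.03 and -0.16), a difference of 1.67 ± 0.13 (adjusted p = 0.00384).

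Siderophores are iron chelators made by other microbes, and yeast imports them through a family of transporters. SIT1 (YEL065W), the ferrioxamine transporter, stood at -0.45, 0.03 and -0.11 in the first round and at 1.76, 2.06 and 2.08 in the repeat, 4.42-fold higher (difference 2.14 ± 0.17, adjusted p = 0.00384). ENB1 (YOL158C), the enterobactin transporter, moved from -1.13, -1.17 and -1.08 to 0.11, -0.11 and 0.10 (difference 1.16 ± 0.11, adjusted p = 0.00483). Of the 7 siderophore genes tested, these 2 were called and 5 had a positive difference. In the repeat 4 lay above without overlap, where 14.8% of all probes did. An unadjusted limma p under 0.05 was found for 5, where 21.9% of all probes had one. Among those not called, chosen after their values were seen apart from ARN2, the transporter genes ARN1 (-0.05 and 0.45) and ARN2 (-0.78 and -0.90, held lower) had adjusted p values of 0.111 and 0.794. FIT2 (0.18 and 0.66) and FIT1 (0.10 and -1.25), which encode cell wall mannoproteins that retain siderophore iron, lay apart between rounds in opposite directions (adjusted p = 0.17 and 0.19). In reductive uptake, FRE4 was held higher (1.03 in the first round, 2.12 in the repeat, adjusted p of the difference = 0.0933), and the low-affinity transporter gene FET4 was held lower (-0.27 and -0.58). On the non-mutator arrays FRE4 lay at 0.08 to 0.31 and FET4 at -0.30 to -0.15. The first-round call of FET4 was lost in 3 of 6 fits without 1 array, those without a first-round array, and under quantile normalization or no centring (-0.29 to -0.15).

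The vacuolar membrane has its own reductase and permease. Of 6 genes of vacuolar iron transport, 1 was called, the permease gene FTH1 (from -0.40 to 0.17). The vacuolar reductase gene FRE6 (from -0.17 to 0.46), counted with reductive uptake above, was called too, and the differences were 0.63 ± 0.11 for FRE6 and 0.57 ± 0.11 for FTH1 (adjusted p = 0.0321 and 0.037). These calls rested on single arrays. FTH1 lost its call in each of 6 fits that left out 1 array (difference 0.53 to 0.62), and FRE6 lost it in 5 of them, all but the fit without first-round array 1 (0.59 to 0.69). FET3, FTR1, FRE1, SIT1 and ENB1 kept theirs in all 6.

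Inside the cell, the heme oxygenase gene HMX1 (YLR205C), whose product releases iron from heme, had the smallest adjusted p of the iron genes together with HEM13. It stood at -1.77, -1.90 and -1.67 in the first round and at 0.52, 0.56 and 0.53 in the repeat. Every first-round array had it below the ancestor and every repeat array above, and the difference was 2.32 ± 0.11, 4.99-fold (adjusted p = 0.00207). GRX4 (YER174C), a monothiol glutaredoxin that signals iron status to Aft1, moved the other way, from 1.54, 1.75 and 1.77 to 0.14, 0.38 and 0.03 (difference -1.50 ± 0.14, adjusted p = 0.00483). BIO5, a transporter of a biotin precursor, was higher than in the ancestor in both rounds and lower in the repeat (2.50 and 1.09, difference -1.40 ± 0.27, adjusted p = 0.0428). BIO5 lost its call without first-round array 2 or 3 and without repeat array 1 or 2 and under both scalings to a common spread (-1.66 to -1.26). The biotin transporter gene VHT1 was held higher at 1.13 and 1.22, and the transfer RNA modification gene TYW1 at 2.01 and 1.11 (difference -0.90 ± 0.18, adjusted p = 0.0502). The regulator gene FRA1 was held lower at -0.74 and -0.61.

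Of 24 genes of iron-sulfur cluster assembly, 9 (37.5%) were held, 7 of them higher, and 1 (4.17%) was called for the difference, near the share of all probes. The called gene was ISA1, a maturation factor of mitochondrial clusters, which went from 0.19 to -0.76 (adjusted p = 0.0329). That call was lost in 5 of 6 fits without 1 array, all but the fit without first-round array 1 (-1.10 to -0.86). The scaffold gene ISU2 (1.62 and 1.19) and the cytosolic electron transfer genes TAH18 (1.02 and 1.30) and DRE2 (0.94 and 1.35) were held higher. The list's median difference of -0.01 changed sign in 9 of 18 alternatives.

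Among enzymes that use iron, the isopropylmalate isomerase gene LEU1 (YGL009C), which encodes an iron-sulfur enzyme of leucine synthesis, was far above the ancestor on all 6 arrays. It stood at 3.0, 3.13 and 3.29 in the first round and at 3.23, 2.98 and 3.0 in the repeat, so that the rounds overlapped (difference -0.07 ± 0.13). The biotin synthase gene BIO2 was held at 1.69 and 1.28. Aconitase, ACO1, was called higher in the repeat (-0.91 and -0.19, difference 0.72 ± 0.14, adjusted p = 0.0482) but lost its call in each of 6 fits without 1 array and under both scalings to a common spread (0.60 to 0.81). The other called members of this list, CYT1, RIP1 and CTT1, belong to the respiratory chain or to stress defence and are described there.

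Heme synthesis held at 3 steps and reversed at another. HEM3 (YDL205C), which encodes porphobilinogen deaminase, stood at 2.65, 2.75 and 2.91 in the first round and at 3.03, 2.74 and 2.42 in the repeat, and the rounds overlapped (difference -0.04 ± 0.18). HEM13 (YDR044W) encodes coproporphyrinogen oxidase, an oxygen-requiring step whose gene is repressed when heme is plentiful. It stood at 2.22, 2.65 and 2.70 in the first round and at -0.69, -0.56 and -0.48 in the repeat. All first-round arrays were thus far above the ancestor and all repeat arrays below it. The difference was -3.10 ± 0.16, 8.55-fold (adjusted p = 0.00207), and the gene was called against the ancestor in each round in opposite directions (adjusted p = 1.23e-05 and 0.0049). The non-mutator arrays had HEM13 at 0.31 to 0.41. HEM4 (-0.44 and -0.52) and HEM15 (-0.35 and -0.60) were held lower, though HEM15 lost its first-round call without first-round array 2 or 3, under quantile normalization or with no centring (-0.41 to -0.24). Of the 8 genes of the pathway, HEM13 was the one called for the difference.

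Of 20 copper and zinc genes, 2 were called, both lower in the repeat. The zinc transporter gene ZRT1 (YGL255W) went from 0.63, 0.74 and 0.94 to -0.34, -0.51 and -0.51 (difference -1.22 ± 0.12, adjusted p = 0.006). On the non-mutator arrays ZRT1 lay at -0.32 to -0.27, below its ancestor as in the repeat. IZH1 (YDR492W), of a family of membrane proteins linked to zinc, was above the ancestor in both rounds (2.64 and 1.15, difference -1.49 ± 0.11, adjusted p = 0.00384). The copper transporter genes CTR1 (-2.28 and -1.69) and CTR3 (-0.79 and -0.65) and the copper-responsive reductase gene FRE7 (-2.33 and -2.18) were held lower.

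**Figure D3:**
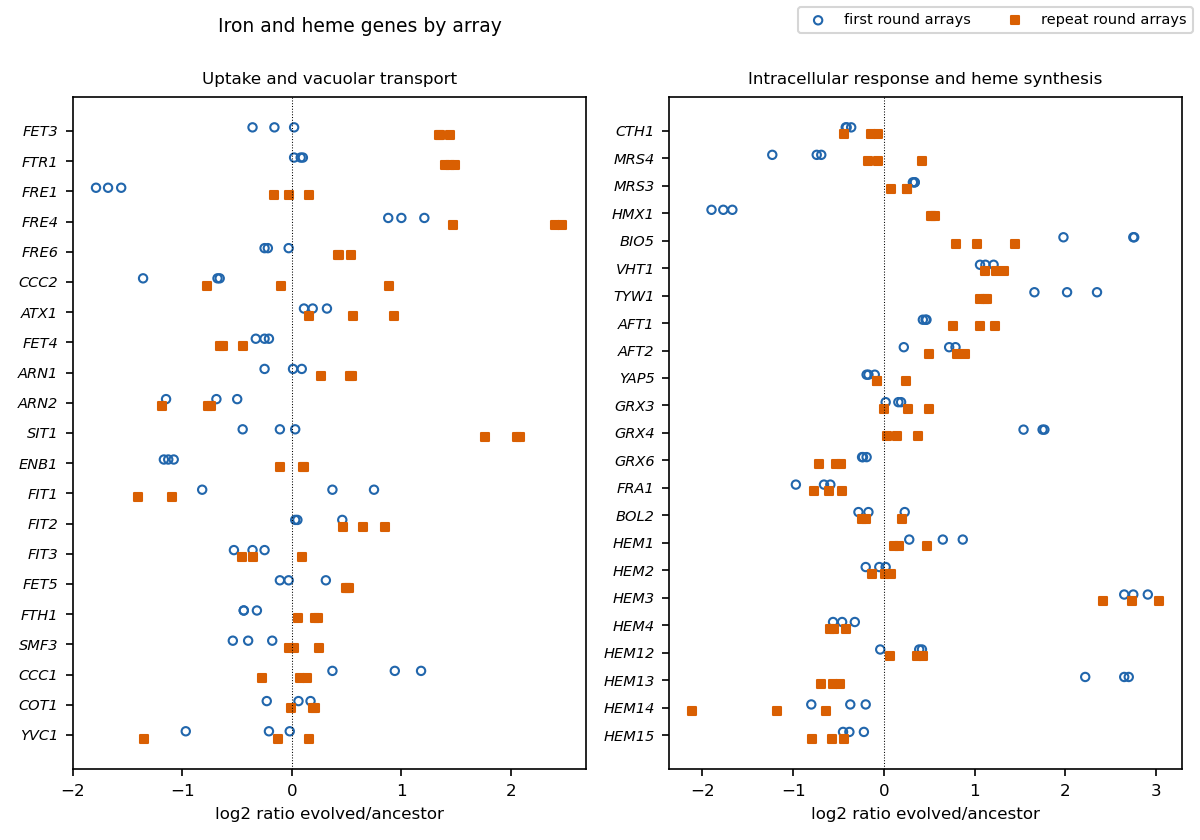
Log2 ratio of m8 over its ancestor for iron uptake, vacuolar, iron response and heme synthesis genes, 1 symbol per array (open circles first round, filled squares repeat). FET3, FTR1, SIT1, HMX1 and HEM13 separate by round, while HEM3 overlaps near 2.7.

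The cytochrome part of the respiratory chain was below the ancestor in the first round and near it in the repeat. Of 16 genes of complex III and cytochrome c, 11 were called for a difference, all higher in the repeat, and the list's medians were -0.80 (first) and 0.05 (repeat). Its median ran from -0.87 to -0.73 over the first-round arrays, from -0.04 to 0.12 over the repeat arrays and from -0.06 to 0 over the non-mutator arrays. CYT1 (YOR065W), which encodes cytochrome c1, stood at -1.09, -1.22 and -1.10 in the first round and at 0.38, 0.25 and 0.24 in the repeat. RIP1 (YEL024W), the Rieske iron-sulfur subunit, stood at -0.76, -0.82 and -0.81 and at 0.62, 0.28 and 0.32. Both were called lower than the ancestor in the first round and higher in the repeat, with differences of 1.43 ± 0.10 and 1.21 ± 0.13 (adjusted p = 0.00384 and 0.00613).

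The cytochrome c genes differed from each other in level but not in the direction of the difference. CYC7 (YEL039C), the isoform favoured at low oxygen, stood at -2.27, -2.29 and -2.26 in the first round and at -0.54, -0.84 and -1.07 in the repeat (difference 1.45 ± 0.15, adjusted p = 0.00613). It was below the ancestor on all 6 arrays. CYC1, the main isoform, stood at -0.54, -0.14 and -0.01 and then at 1.11, 0.70 and 0.71, and was chosen after its values were seen (difference 1.07 ± 0.19, adjusted p = 0.0324). QCR10 (YHR001W-A), a small subunit of complex III, had a difference of 1.35 ± 0.14. The 5 members not called were CYC3, CBP3, CBP4, BCS1 and MZM1, which attach heme to cytochrome c or assist assembly and are not subunits of the finished complex. Leaving out 1 array at a time left 5 to 9 of the 16 called higher and none lower.

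Complex IV, cytochrome oxidase, gave the same picture with an exception at subunit 5. Of 9 genes for its nuclear-encoded subunits, 4 were called, all higher in the repeat, and all 9 had a positive difference. COX5A (YNL052W), the form used in air, stood at -0.63, -0.55 and -0.58 in the first round and at 0.42, 0.59 and 0.42 in the repeat (difference 1.06 ± 0.10, adjusted p = 0.00483). COX5B (YIL111W), the form used at low oxygen, stood at -2.43, -2.03 and -2.08 and at -2.41, -1.93 and -1.81, so its rounds overlapped (difference 0.13 ± 0.20). COX4 (from -0.93 to 0.17) and COX13 (from -0.63 to 0.18) were called as well (adjusted p = 0.00694 and 0.0154), and COX8 with them (from -0.65 to 0.01, adjusted p = 0.0346). COX8 lost its call in 5 of 6 fits without 1 array (0.60 to 0.73) and COX13 in 3 of them, those without first-round array 2 or 3 or repeat array 1 (0.75 to 0.88). None of 20 assembly factors of complex IV was called for the difference in limma, and 2 had an unadjusted p under 0.05 (21.9% of all probes had). Of these, SHY1 (-0.92 and -0.79) and SCO2 (-0.74 and -1.06) were held lower, and COX10, a heme A synthesis gene, was held higher (0.84 and 0.98).

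At the entry of the chain, succinate dehydrogenase held and an NADH dehydrogenase reversed. Of 10 genes of complex II and the NADH dehydrogenases, 6 were held lower and 2 were called for the difference. NDE1 (YMR145C), the outward-facing NADH dehydrogenase, stood at -1.19, -0.94 and -1.0 in the first round and at 0.57, 0.51 and 0.35 in the repeat (difference 1.52 ± 0.12, adjusted p = 0.00384). NDI1 (YML120C), its inward-facing counterpart, stayed below the ancestor throughout, at -2.12 and -1.13 (difference 0.99 ± 0.12, adjusted p = 0.00911). The NDI1 call was lost without first-round array 2, where the difference of its fits lay between 0.90 and 1.04. SDH2 (-1.55 and -1.28, difference 0.27 ± 0.14), SDH4 (-1.82 and -1.50, 0.32 ± 0.10) and SDH6 (-1.32 and -0.87, 0.45 ± 0.16) were held lower. These 3 genes did not overlap between rounds and were not called for the difference.

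The regulators of these genes also split. HAP1 (YLR256W), the heme-responsive activator of cytochrome genes, stood at 1.11, 1.07 and 1.12 in the first round and at -0.59, -0.83 and -0.69 in the repeat, opposite to the cytochrome genes (difference -1.80 ± 0.11, adjusted p = 0.00373). HAP4 (YKL109W), the activating subunit of the CCAAT-binding complex that drives respiratory genes, went from -1.20, -0.94 and -0.89 to 0.57, 0.13 and 0.11 (difference 1.28 ± 0.17, adjusted p = 0.0123). The HAP4 call was lost without first-round array 2, within a range of 1.13 to 1.36. Its partner HAP5 was held lower at -0.97 and -0.89, and ROX1, a repressor of low-oxygen genes, was held higher at 0.66 and 1.35. On the non-mutator arrays HAP1 lay at -0.31 to -0.19 and HAP4 at -0.11 to 0.04.

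**Figure D4:**
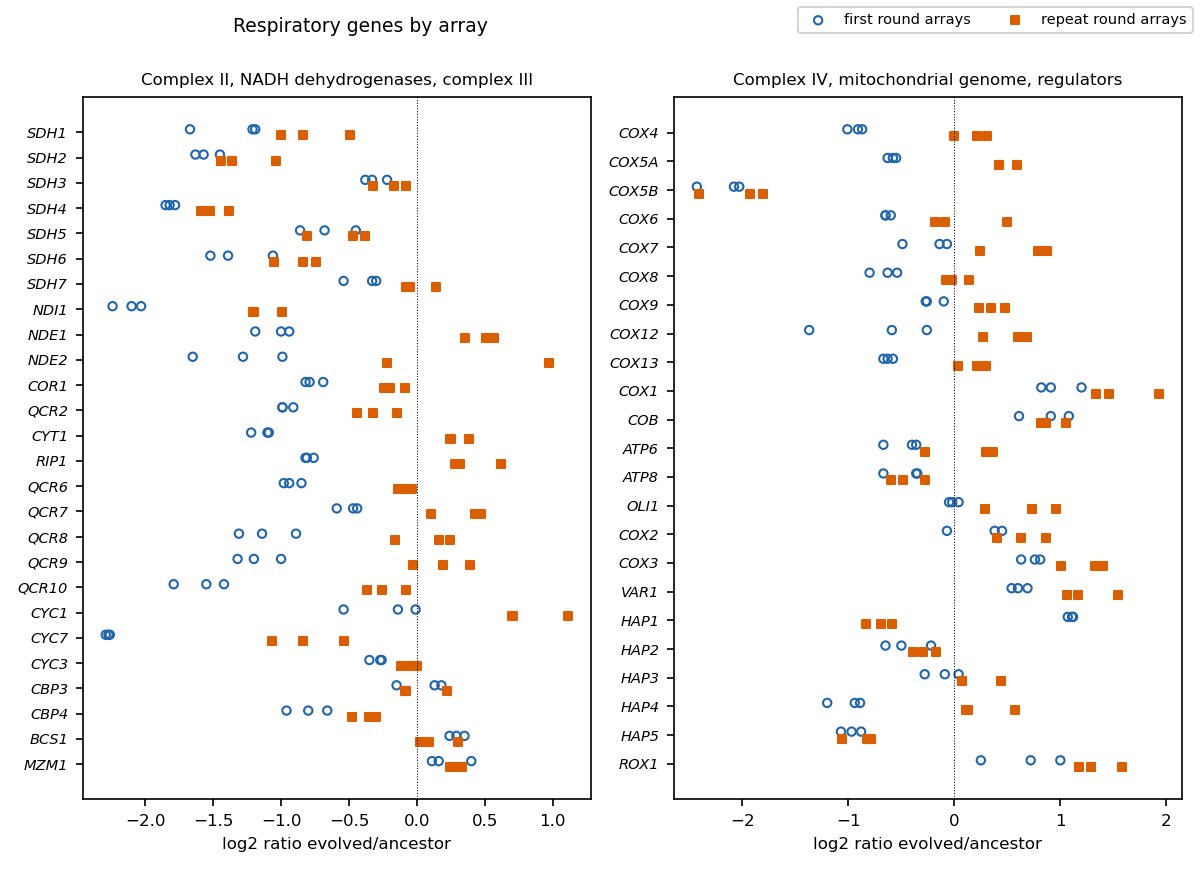
Log2 ratio of m8 over its ancestor for subunits of complexes II, III and IV, NADH dehydrogenases, mitochondrially encoded genes and regulators, 1 symbol per array (open circles first round, filled squares repeat). CYT1, RIP1, NDE1 and COX5A cross 0 between rounds in one direction and HAP1 in the other, while COX5B and SDH2 stay well below 0.

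The genes carried by the mitochondrial genome had medians of 0.43 and 0.79. In the first round the medians of the nuclear lists for complexes III and IV and ATP synthase were below 0. Of 8 such genes, 4 were held higher and 1 lower, and none was called for the difference. All 8 differences were positive, with a median of 0.56, and 5 had an unadjusted p under 0.05 (21.9% of all probes had). COX1 stood at 0.91, 0.82 and 1.20 in the first round and at 1.93, 1.46 and 1.34 in the repeat (difference 0.60 ± 0.19, adjusted p = 0.144). COX3 (0.73 and 1.25) and COB, the gene of cytochrome b, (0.87 and 0.91) were held higher as well.

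The ATP synthase list showed 3 called genes of 20, all higher in the repeat, and medians of -0.42 and 0. Its leading members were STF1 (-2.61 and -1.83) and STF2 (-3.21 and -1.96), which encode stabilising factors of the enzyme. Both were far below the ancestor in each round (adjusted p of the difference = 0.0154 and 0.0279). Subunit b, ATP4, went from -0.54 to 0.16 (adjusted p = 0.0377). Giving all arrays an equal median absolute deviation left 1 of the 3 called, ATP4. Without 1 array, STF1, STF2 and ATP4 lost their calls in 3, 5 and 5 of 6 fits, with differences of 0.64 to 0.83, 1.08 to 1.43 and 0.61 to 0.78 over all alternatives. ATP3 had too few values for the test.

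Of 20 genes of the tricarboxylic acid cycle list, 10 (50.0%) were held lower, for example CIT1 (-1.40 and -0.91), where 24.3% of all probes were held lower. The difference was called for 3 of them (15.0%), IDH1 and ACO1 higher and CIT2 lower. IDH1 (YNL037C), a subunit of isocitrate dehydrogenase, went from -1.29, -1.48 and -1.35 to -0.28, -0.11 and -0.38 (difference 1.12 ± 0.12, adjusted p = 0.00628). CIT2 (YCR005C), the peroxisomal citrate synthase and a target of retrograde signalling, went the other way, from 1.32, 0.90 and 1.18 to -0.01, -0.41 and -0.56 (difference -1.46 ± 0.19, adjusted p = 0.0114). Without first-round array 3 the CIT2 call was lost, within a range of -1.62 to -1.34. In the list of glucose-repressed carbon use, 2 of 22 genes (9.09%) were called and 27.3% were held. The called genes were the mitochondrial aldehyde dehydrogenase gene ALD4 (-1.94 and -1.07, adjusted p = 0.00927) and the acetate transporter gene ADY2 (0.07 and 1.46, the latter from 2 arrays, adjusted p = 0.0295). ALD4 lost its call without first-round array 2 (0.79 to 0.91) and ADY2 without first-round array 2 or 3 (1.29 to 1.54). CYB2, GUT2 and MDH2 were held lower, at -1.38 and -0.97, -0.86 and -0.61, and -0.56 and -0.56. On the non-mutator arrays these 3 lay at -0.25 to 0.03, -0.69 to -0.41 and -0.11 to 0.04, so GUT2 was lower there too. The repeat call of CYB2 was lost in 3 fits without 1 array, each of them without a first-round array.

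Coenzyme Q synthesis and the mitochondrial ribosome gave few differences. Of 11 coenzyme Q genes 7 were held, among them COQ4 at -1.16 and -1.15, and COQ2 was called (0.31 and 0.99, adjusted p = 0.0498), though in none of 6 fits without 1 array (0.59 to 0.77). Of 67 genes with names of mitochondrial ribosomal proteins, 21 were held higher and 2 lower, and MRP8 was called (-1.73 and -1.21, adjusted p = 0.0387), also in none of those fits and under neither scaling to a common spread (0.44 to 0.55). The medians of that list were 0.18 and 0.22, and 34.3% of it was held, where 47.4% of all probes were.

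Many genes of cell division were above the ancestor in both rounds, and most of their differences were negative. RNA of a bulk culture cannot tell a larger share of cells in a phase from more RNA per cell. Of 38 genes of G1 and S phase, 25 were held higher and 33 had a negative difference. Of 28 genes of G2 and M phase, 16 were held higher and 27 had a negative difference. The medians were 0.73 and 0.51 for G1 and S phase and 0.80 and 0.40 for G2 and M phase. Over the arrays, the G2 and M median was 0.75 to 0.81 in the first round, 0.30 to 0.47 in the repeat and -0.07 to 0.06 in the non-mutator. In each list 4 genes were called for the difference, all lower in the repeat, and 1 to 4 and 1 to 3 were called so when 1 array was left out.

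Among the called cyclin genes, CLB1 and CLB6 had the largest differences. The mitotic cyclin gene CLB2 was not called (difference -0.58, adjusted p = 0.108 in limma). CLB6 (YGR109C), an S-phase cyclin, stood at 2.08, 2.04 and 2.04 in the first round and at 1.09, 0.91 and 1.01 in the repeat. It was above the ancestor on all 6 arrays and 2.07-fold lower in the repeat (difference -1.05 ± 0.10, adjusted p = 0.00483). CLB1 (YGR108W), a mitotic cyclin, stood at 0.70, 0.90 and 1.03 and at -0.19, -0.51 and -0.39, on opposite sides of the ancestor (difference -1.24 ± 0.14, adjusted p = 0.00717). On the non-mutator arrays CLB1 lay at -0.43 to -0.37, within the range of the repeat. The G1 cyclin gene CLN2 (YPL256C) also changed sides, from 0.38, 0.27 and 0.48 to -0.31, -0.47 and -0.34 (difference -0.75 ± 0.11, adjusted p = 0.0168). The cyclin gene PCL1 went from -0.09 to -0.78 (adjusted p = 0.0359). CLB6 and CLB1 kept their calls in all 6 fits without 1 array, but CLB1 lost its call with the RNA number as a replicate block. CLN2 lost its call without first-round array 2 or 3 or repeat array 1 (-0.80 to -0.70), and PCL1 in all but the fit without first-round array 1 (-0.79 to -0.62).

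The other called cell cycle genes were CDC5, the polo kinase (1.69 and 0.91, adjusted p = 0.0115), RNR1, the large subunit of ribonucleotide reductase (1.99 and 1.38, adjusted p = 0.0493), HST3, a histone deacetylase (0.87 and 0.22, adjusted p = 0.0299), and ASE1, a spindle midzone protein (0.90 and 0.31, adjusted p = 0.0388). CDC5 lost its call without first-round array 2 or 3 (-0.82 to -0.71), RNR1 in 5 fits without 1 array and under both scalings to a common spread (-0.70 to -0.51), and HST3 and ASE1 in all 6 (-0.72 to -0.60 and -0.65 to -0.51). Held without a called difference were POL30, the replication clamp (0.99 and 0.97), POL1, a polymerase subunit (1.31 and 0.97), CLB2 (1.47 and 0.89), CDC20 (1.10 and 0.77) and the Aurora kinase gene IPL1 (1.22 and 1.18, the latter from 2 arrays). CDC45, a replication factor, was held at 1.64 and 1.11, but its repeat values of 0, 2.09 and 1.25 were spread widely, and 4 fits without 1 array lost the call of the repeat round.

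The other cell cycle lists had no called difference in limma, where 4.52% of all probes had one. An unadjusted p under 0.05 was found for 1 of 14 genes of M/G1 licensing, 2 of 10 histone genes and 4 of 16 genes of daughter cell separation. Of all probes 21.9% had one. At the end of mitosis, 10 of 14 genes of the licensing list were held higher, such as ORC1 (1.03 and 1.22), CDC6 (1.58 and 0.90) and the cyclin gene CLN3 (0.91 and 0.82). Of 10 histone genes, 6 were held higher, with HTB2 at 0.68 and 0.66, HHF1 at 0.60 and 0.85 and HHF2 at 0.56 and 0.78. In that list 7 of 10 differences were positive. Of 16 genes of daughter cell separation, 5 were held lower and 1 higher (37.5%, where 47.4% of all probes were held). Those held lower included the chitinase gene CTS1 (-1.91 and -2.12), RME1 (-1.45 and -1.61) and DSE1 (-1.08 and -1.36). In this list 15 of 16 differences were negative.

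General stress markers and genes of reserve carbohydrates were far below the ancestor in both rounds, chaperones and oxidative defence less so, and most differences in these lists were positive. Of 44 general stress markers tested, 42 were held lower and 1 was held higher, and the medians were -2.68 and -1.96. The list's median lay between -2.66 and -2.40 on first-round arrays, between -2.09 and -1.87 on repeat arrays and between 0.12 and 0.14 on non-mutator arrays. Of the 44, 8 were called higher in the repeat and 1 lower, and 35 had a positive difference. Between 1 and 7 were called higher when 1 array was left out, and between 3 and 8 under other scalings. The SD of log2 ratios was 0.85 on repeat array 3 and 0.93 to 1.0 on the other mutator arrays. Given an equal median absolute deviation on all arrays, the list's median difference was 0.21 in place of 0.38. Under that scaling HOR7, HSP30, GSY1, HSP104, SSA1, CTT1 and SOD1, described next, lost their calls.

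TMA10 (YLR327C), which encodes a ribosome-associated protein, had the largest positive difference among genes named by the rule. It stood at -4.33, -3.66 and -3.73 in the first round and at -1.05, -1.15 and -1.37 in the repeat, so that all repeat arrays were higher (difference 2.72 ± 0.20, 6.57-fold, adjusted p = 0.00384). DDR2 (-3.22 and -1.91, adjusted p = 0.0113) and HOR7 (-2.71 and -1.49, adjusted p = 0.0155) encode small proteins induced by stress and were called the same way. YGP1 (YNL160W), a cell wall glycoprotein gene, was the one member called lower in the repeat, from -2.32, -2.32 and -2.26 to -3.17, -3.36 and -3.18 (difference -0.94 ± 0.11, adjusted p = 0.00711). The cell wall gene SPI1 (-4.45 and -4.28, difference 0.17 ± 0.24) and the glucokinase gene GLK1 (-4.02 and -3.85, 0.18 ± 0.14) were held with overlapping rounds, and the hexokinase gene HXK1 was held at -5.04 and -4.0 (adjusted p of the difference = 0.0882). DDR2 and HOR7 lost their calls without first-round array 2 or 3, with differences of 1.16 to 1.43 and 1.07 to 1.31.

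A small set of strongly lowered genes moved in both directions. RGI1 (YER067W), a gene of energy metabolism, stood at -6.02, -5.68 and -5.65 in the first round and at -3.48, -3.65 and -3.95 in the repeat (difference 2.09 ± 0.17, adjusted p = 0.00384). YRO2 (YBR054W), a membrane protein gene, stood at -3.84, -3.45 and -3.23 and at -5.47, -6.09 and -5.48 (difference -2.18 ± 0.23, adjusted p = 0.00642). Its relative HSP30 (YCR021C) went from -3.86, -3.66 and -3.79 to -4.65, -4.83 and -4.84 (difference -1.0 ± 0.11, adjusted p = 0.00741, range over alternatives -1.26 to -0.94). MRH1, of the same family, was held at -0.67 and -1.12 (adjusted p of the difference = 0.126). On the non-mutator arrays RGI1, YRO2 and HSP30 were all above their ancestor, at 0.22 to 0.48, 0.43 to 0.52 and 0.49 to 0.55.

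Reserve carbohydrate genes held almost throughout. Of 19 genes for trehalose and glycogen, 18 were held lower, and 2 of these were called for the difference. The glycogen synthase gene GSY1 went from -3.83 to -2.95 (adjusted p = 0.013) and the branching enzyme gene GLC3 from -4.35 to -2.99 (adjusted p = 0.0459). TSL1, of the trehalose synthase complex, stood at -3.97, -3.95 and -3.99 in the first round and at -3.78, -3.96 and -3.78 in the repeat, a difference of 0.13 ± 0.10. The glycogen phosphorylase gene GPH1 (-5.29 and -4.12, adjusted p of the difference = 0.106) and GSY2 (-4.12 and -3.79) were held as well. GSY1 lost its call without first-round array 2 or 3 (0.69 to 0.97), and GLC3 in 5 of 6 fits without 1 array (1.05 to 1.52).

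Heat shock chaperones were lowered less deeply, and 29 of 32 had a positive difference. Of the 32, 14 (43.8%) were held, all of them lower, where 47.4% of all probes were held and 24.3% were held lower. In the repeat 5 were called higher. They included the disaggregase gene HSP104 (-3.54 and -2.53, adjusted p = 0.0261) and the genes of the Hsp90 co-chaperones STI1 (-1.20 and -0.38, adjusted p = 0.0171) and CPR6 (-0.71 and -0.07, adjusted p = 0.0197). SSA1, of the cytosolic Hsp70s, went from -0.61 to 0.08 (adjusted p = 0.0449), and its probe may also read the nearly identical SSA2. The small heat shock protein gene HSP26 stood at -6.33, -5.58 and -5.83 in the first round and at -5.35, -5.23 and -5.41 in the repeat, held without overlap and without a called difference (0.59 ± 0.20, adjusted p = 0.166). HSP31 (-3.02 and -2.83) and SSE2 (-2.69 and -2.67) were held with differences of 0.19 ± 0.12 and 0.01 ± 0.14. The calls of STI1, CPR6, HSP104 and SSA1 were lost in 3, 4, 5 and 6 of 6 fits without 1 array, always including those without first-round arrays 2 and 3, at differences of 0.74 to 0.86, 0.60 to 0.67, 0.84 to 1.17 and 0.59 to 0.80. Between 0 and 6 of the 32 were called higher in those fits.

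Oxidative stress defence followed the same pattern. Of 36 genes, 22 were held lower and 3 higher, and 6 were called for the difference, all higher in the repeat. GPX2 (YBR244W), a peroxidase gene, stood at -2.12, -2.07 and -2.05 in the first round and at -0.40, -0.56 and -0.87 in the repeat (difference 1.47 ± 0.14, adjusted p = 0.00483), and kept its call in all 6 fits without 1 array. The peroxiredoxin gene AHP1 (-1.32 and -0.57, adjusted p = 0.0105), GPX1 (-2.43 and -1.71, adjusted p = 0.0294) and the superoxide dismutase gene SOD1 (-1.0 and -0.39, adjusted p = 0.0436) were called too. AHP1 lost its call without first-round array 2 or 3 (0.70 to 0.78), and GPX1 and SOD1 in all 6 such fits (0.57 to 0.76 and 0.55 to 0.68). The catalase gene CTT1 (-3.0 and -1.93, adjusted p = 0.0304) lost its call in 5 of them, all but the fit without first-round array 1 (0.93 to 1.25). TSA2 (-3.16 and -2.61), PRX1 (-1.88 and -1.72) and GRX1 (-1.84 and -1.56) were held lower without a called difference.

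The unfolded protein response of the endoplasmic reticulum showed no called difference in 19 genes, where 4.52% of all probes had one. An unadjusted p under 0.05 was found for 4 of the 19, where 21.9% of all probes had one. Of the 19 genes, 5 were held lower and 1 was held higher. Those held lower included HAC1, the transcription factor of this response (-1.35 and -1.17), PDI1 (-0.69 and -0.64) and ERO1 (-0.69 and -0.52). In either direction 31.6% of the list was held, where 47.4% of all probes were. ERO1 lost its call in the repeat without repeat array 1. The non-mutator arrays had a median of 0.36 to 0.57 over this list.

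**Figure D5:**
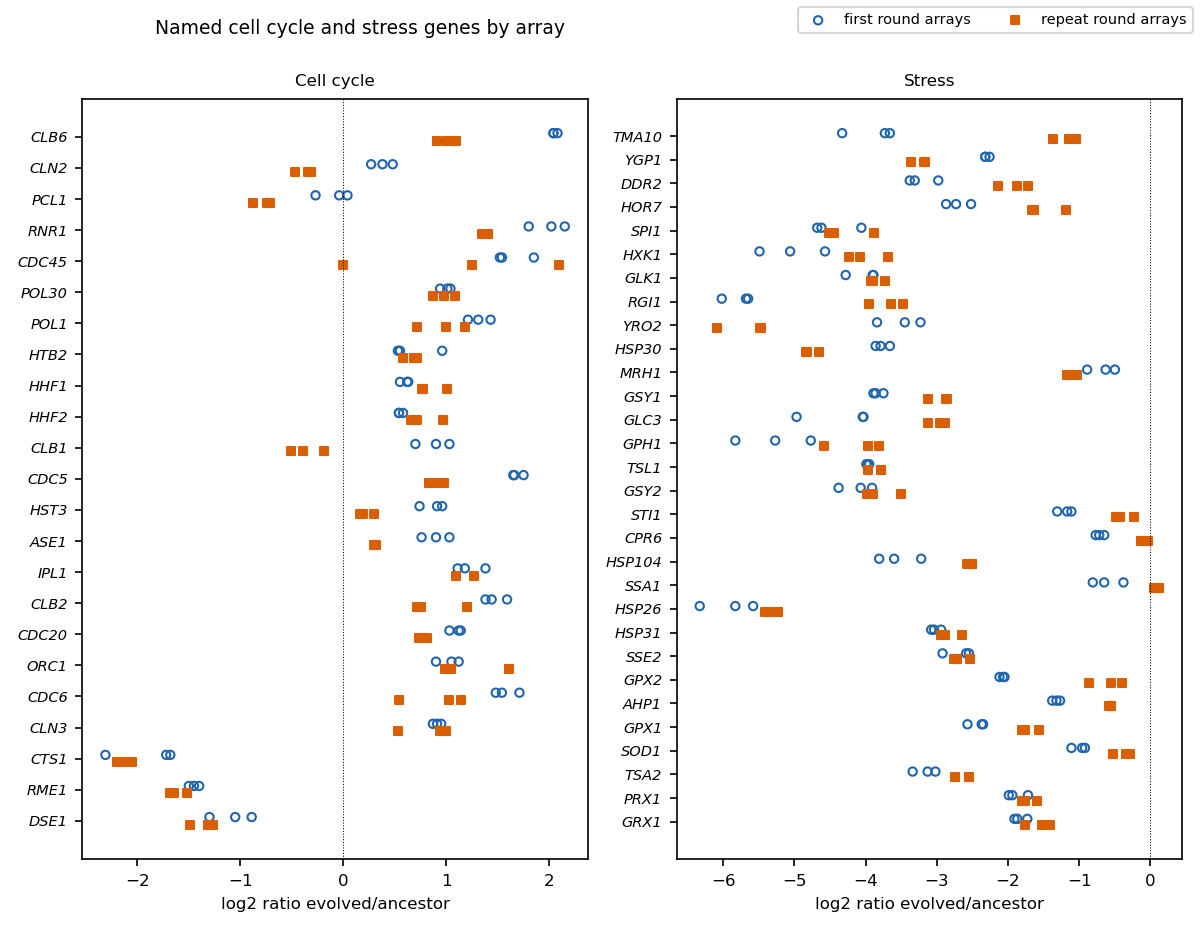
Log2 ratio of m8 over its ancestor for the named cell cycle genes (left) and stress genes (right), 1 symbol per array (open circles first round, filled squares repeat); the panels have different x ranges. CLB1 and CLN2 cross 0 between rounds, CLB6 and CDC5 stay above it, and TMA10, RGI1 and GPX2 move toward 0 while YRO2, HSP30 and YGP1 move away from it.

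Several of the largest differences lay outside these functions. IZH4 (YOL101C), of the same family as IZH1, had the largest of all among genes named by the rule, from 3.11, 3.19 and 3.01 in the first round to -3.26, -1.92 and -0.69 in the repeat (difference -5.06 ± 0.60, 33.4-fold, adjusted p = 0.00883). Its repeat values agreed in sign and were spread over more than 2 log2 units. The cell wall mannoprotein gene TIP1 (YBR067C) went from 1.13 to -0.58, the membrane protein gene FHN1 (YGR131W) from 0.95 to -0.63 and the urea amidolyase gene DUR12 (YBR208C) from 1.69 to -0.04. ALD6 (YPL061W), the cytosolic acetaldehyde dehydrogenase, went the other way, from -1.22, -0.89 and -0.43 to 1.88, 1.46 and 1.45 (difference 2.44 ± 0.23, adjusted p = 0.00483). On the non-mutator arrays ALD6 lay at -1.33 to -0.88, below its ancestor as in the first round. MAL32 (YBR299W), a maltase gene nearly identical to MAL12, whose signal its probe may share, went from -0.95 to 1.69 (adjusted p = 0.00728). These 6 genes kept their calls in all 6 fits that left out 1 array.

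The rule also named YER053C-A (-2.47 and -0.28), CPP3 (-3.08 and -1.18), the Rab gene YPT53 (-2.59 and -0.78) and SUE1, a gene of cytochrome c turnover (-1.62 and 0.89), all higher in the repeat. TDA6 (-1.95 and -4.24) and RPI1, a transcriptional regulator (-0.65 and -2.41), were lower in it. SUE1 and YPT53 lost their calls in 5 of 6 fits without 1 array, all but those without first-round array 1 and without repeat array 2, respectively (1.98 to 2.98 and 1.51 to 2.16).

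Some listed genes had too few values for the test. In the first round the iron-responsive mRNA decay gene TIS11 had 1 value, -0.38, and in the repeat 2, 2.48 and 1.99. FRE2, FRE3 and FRE5 each lacked values on at least 2 repeat arrays, and LSO1 and LSO2 had no probe matched here. The stress gene EGO4 was at the floor on 2 first-round arrays, with -6.48 on the other, and at -5.91, -5.66 and -5.89 in the repeat.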

How the data were processed

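RNA of the mutator line m8 and of an evolved non-mutator was compared on 2-colour arrays with RNA of each ancestor. Total RNA had been isolated with a Qiagen RNeasy kit, per the labels' protocols. The values the authors deposited are linear ratios, 1 per probe and array. How background and scale were treated is not given in the sources used here. No array had its dyes swapped, so an effect of the dyes on a probe cannot be told apart from a held change. The dye labels give the likely direction. Ratios were turned into log2 values, those at 0.01 (to a tolerance of 1e-04) were set to missing, and each array was centred on its median. Of 6947 probes, 6377 carried a systematic name and 5840 matched the R64 reference table, which gave symbols.

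Probes with at least 2 values in each round (6571, with 376 left out) were fitted in limma 3.58.1 (R 4.3.3, lmFit and eBayes) with a mean per round over the 6 mutator arrays. The repeat minus the first mean, and each mean against 0, were tested two-sided with Benjamini-Hochberg adjustment over all probes tested and a threshold of 0.05. On simulated data of 6571 genes, 60.7% of genes changed by 1 on the log2 scale and 90.1% of those changed by 2 were recovered. Lists (41 in all) are described by counts and medians. Members, lists and rules were chosen with earlier results of these data known. Named genes are the 10 largest called differences each way with values on all 6 arrays and no overlap. To these come up to 4 called and 3 held members of each list of iron, respiration, cell cycle and stress. Up to 10 genes called in opposite directions were added. These and the largest differences were taken among genes matched to the reference. Other genes were chosen after their values were seen, also where this is not marked, as under the other observations. In the text, a range beside a lost call covers all alternatives of that gene. Alternatives changed the scaling, the floor, the filter, the spread estimate, the threshold and the arrays used. Figures used matplotlib 3.10.9 and pandas 2.3.3 (Python 3.11.15).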

Additional observations from a re-analysis of the deposited data

Results flagged for a closer look

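Of the 47 probes called in opposite directions with a called difference, these 10 had the largest values in the weaker of their rounds among genes matched to the reference table. Every array with a value lay on one side of the ancestor in one round and on the opposite side in the other. Repeat minus first, IZH4 differed by -5.06, HEM13 by -3.10, HAP1 by -1.80, TIP1 by -1.71 and FHN1 by -1.57. In the other direction MAL32 differed by 2.65, ALD6 by 2.44, PRM10 by 1.78, SPO20 by 1.73 and ARO9 by 1.34. The aromatic aminotransferase gene ARO9 stood at -0.85, -0.74 and -0.81 in the first round and at 0.49, 0.59 and 0.53 in the repeat, and at -1.15 to -1.10 on the non-mutator arrays. The pheromone-regulated gene PRM10 stood at -1.34, -0.60 and -0.17 and at 1.35, 0.94 and 0.95 (limma, adjusted p = 0.0295), and lost its call in 4 of 6 fits without 1 array. The meiotic SNARE gene SPO20 had 2 values in each round, -1.06 and -1.12 against 0.96 and 0.33 (adjusted p = 0.0428), and lost its call in 1 of 2 such fits.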

How the results depend on the processing

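The 297 differences between rounds and the 47 opposite calls changed with the estimate of the spread and with the threshold. All 9 arrays sharing 1 estimate gave 916 differences (480 higher, 436 lower, 97 opposite), and array weights gave 580 (329, 251, 79). Under an adjusted p below 0.01 there were 89 (47, 42, 15), and with a log2 size of at least 1 there were 157 (96, 61, 1). That size rule left 1276 probes called in the first round, 1214 in the repeat and 886 held. With the RNA number as a replicate block 84 were called (50, 34, 21). Of 225 results on single genes, 45 lost their call in that fit. Among them were CLB1, ZRT1, QCR10, IDH1, YGP1, RPI1 and HSP30, which kept theirs in all 6 fits without 1 array. After each round's mean was removed, same-number arrays had r = -0.103, -0.00377 and -0.0442, and arrays of different numbers had -0.0815 to 0.125. Deviations from a mean of 3 arrays, with noise between arrays, cannot show whether the number marks shared RNA. Leaving out each array in turn gave 92 to 273 differences (48 to 163 higher, 44 to 110 lower), 22 to 50 opposite calls, 3175 to 4046 and 3239 to 4117 probes called in the first round and the repeat, and 2613 to 3094 held. The causes of these changes were not tested. Of 4710 values recomputed for 225 results on single genes, 4280 kept their direction and call, 429 lost the call and 1 reversed: IPL1 in the repeat was -1.45 (adjusted p = 0.463) with floor ratios kept, since its missing value is such a ratio. No scaling moved the share of differences that were higher in the repeat, 61.6%, below 55.9%. Other settings brought it nearer to even. It was 52.1% without repeat array 1 and 52.2% without first-round array 2. With all 9 arrays sharing 1 estimate it was 52.4%, and at an adjusted p under 0.01 it was 52.8%. Of 540 list medians recomputed, 518 moved by less than the spread of the arrays. Medians near 0 changed sign in some alternatives for iron-using enzymes, copper and zinc uptake, complex IV assembly, mitochondrial ribosomal proteins and the unfolded protein response. Precision is limited by 3 arrays per round, which may share RNA.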

Other observations

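Growth genes, outside the functions above, were held in both rounds for 66.5% of 328 tested, where 47.4% of all probes were, but not in every list. The count takes in genes of sterol synthesis and of sugar use. Of 66 ribosome biogenesis genes, 65 were held higher in m8, with medians of 1.43 and 1.44 (0.06 to 0.14 on the non-mutator arrays), and 1, the helicase gene HAS1, was called for the difference (1.72 and 1.19, adjusted p = 0.0357 in limma). Of 138 cytosolic ribosomal protein genes, 92 were held higher (medians 0.43 and 0.45) and none was called in limma (4.52% of all probes were). An unadjusted p under 0.05 was found for 9 of the 138 (21.9% of all probes had one). Of 34 proteasome genes, 14 (41.2%) were held, all of them lower, where 47.4% of all probes were held and 24.3% were held lower. RPN13 was called (-0.52 and 0.20, adjusted p = 0.0413 in limma). Of 21 phosphate genes, 12 were held lower and none was called for the difference. An unadjusted p under 0.05 was found for 7 of the 21 (21.9% of all probes had one). The medians of this list were -0.90 and -0.93, with -0.98 to -0.87 on the non-mutator arrays. The 7 genes specific to a cells, which mark mating type, were all held lower, at medians of -1.97 and -2.29. Their median was -2.17 to -1.92 on the non-mutator arrays, and STE2, the alpha-factor receptor gene, was called lower in the repeat (-0.68 and -1.43, adjusted p = 0.0113). Without 1 array, RPN13 was called in no fit, and the counts for ribosome biogenesis and for a-specific genes were 0 or 1.

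Genes of sterol synthesis and low oxygen, chosen for naming after their values were seen, split by round. Of 33 tested, 27.3% were held, 3 were called higher in the repeat and 3 lower. The isoforms of HMG-CoA reductase, the controlling enzyme of sterol synthesis, went opposite ways. HMG1, the form favoured in air, stood at -0.41, -0.62 and -0.39 in the first round and at 0.89, 0.89 and 0.78 in the repeat (adjusted p = 0.00384). HMG2, the form favoured at low oxygen, stood at 0.44, 0.24 and 0.21 and at -0.95, -0.58 and -0.55 (adjusted p = 0.018). MGA2, an activator of low-oxygen genes, went from 1.15, 1.27 and 1.41 to -0.02, -0.21 and -0.19 (adjusted p = 0.00384), and the cell wall gene TIR3 from 0.07 to -1.09 (adjusted p = 0.00951). ERG10 (-0.28 and 0.53) and ERG8 (-0.36 and 0.26), early steps of the pathway, were higher in the repeat (adjusted p = 0.0329 each). Without 1 array, 1 to 3 of the 33 were called in each direction. No difference was called among 3 alpha-specific, 9 haploid-specific and 13 sporulation genes. Of these, 1, 2 and 4 had an unadjusted p under 0.05 (21.9% of all probes had).

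Of 24 PAU genes, a family of cell wall mannoproteins also picked after its values were seen, 18 were called lower in the repeat and all 24 differences were negative. Of all probes, 1.73% were called lower and 52.4% had a negative difference. The PAU medians were -0.40 and -1.43, and the PAU counts were not repeated without 1 array. The sequences of this family are nearly identical, so its probes may read each other's RNA and are not independent. Of 14 hexose transport genes tested, 2 were called in limma, both higher in the repeat and named after their values were seen. The transporter gene HXT2 went from 0.13, -0.06 and 0.17 to 1.90, 1.67 and 1.42 (adjusted p = 0.00483). MTH1, a regulator of transporter genes, went from -2.88 to -1.66 (adjusted p = 0.00457).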
